A study of Mus musculus with 2 samples.

Results

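The keratin genes of the mouse were taken by symbol, as every gene whose symbol is Krt followed by a number alone, and 50 of the 43346 Ensembl genes in the tables met this. Limb tissue was the source of the sequenced total RNA (molecules over 200 nt), from healthy B6NCrl mouse embryos at embryonic day 13.5, males and females pooled, with ERCC spike-in transcripts added and 10 ng of RNA as input. All samples belong to a single group, and the 2 libraries, replicate 1 and replicate 2, are labelled as biological replicates from separate tissue samples under a shared donor entry. The labels give no other age, tissue, genotype or treatment, and leave unstated which limbs, fore or hind, were dissected. Depth came to 31927117 expected counts for replicate 1 and 43194518 for replicate 2, with 2.11% and 2.07% of the counts in spike-ins. Since the samples form 1 group, no test between conditions exists: levels are given for each library, and differences between genes are read against the spread between the libraries, which may in part be technical. All 7 markers of limb tissue looked up were above 20 TPM (a transcript's share of all transcripts after correction for length) in both libraries, among them Prrx1, a factor of limb mesenchyme, at 133 TPM in replicate 1 and 149 TPM in replicate 2.

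Keratins are the intermediate filament proteins of epithelial cells. Filaments form only from pairs of an acidic type I and a basic type II chain, and epithelia carry typical pairs: Krt8 with Krt18 in simple epithelia and the earliest embryonic ectoderm, Krt5 with Krt14 in the dividing basal layer of the epidermis, and Krt1 with Krt10 in the layers above it. In the embryonic limb the ectoderm is becoming a layered skin, covered for a time by flat periderm cells, and hair and nail keratins are known from appendages that form later. The type I genes other than Krt18 lie together on chromosome 11, and the type II genes lie together on chromosome 15 with Krt18 at the end.

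All 25 members on chromosome 11 were type I and lay between positions 99232761 and 100269871 of the mm10 genome. The 25 members on chromosome 15 lay between positions 101347444 and 102032027 and comprised 24 type II genes and the type I gene Krt18, which starts 23697 bp after the end of Krt8. In all, 49 members were annotated as protein-coding, and Krt74 as a transcribed unitary pseudogene. Another 4 keratins with a letter in the symbol (Krt6a, Krt6b, Krt33a and Krt33b) fall outside the symbol rule and are given beside the members.

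The coding sequences of keratins are alike enough that reads can match more than 1 of them. The longest stretch that Krt14, the member with the highest TPM over all transcripts, shares base for base with another keratin is printed here because it shows where counts may be divided between genes by the estimate. It is 134 nt long, lies on chromosome 11 and is also in Krt16. Capitals mark 11 bases, the longest stretch that this run has in common with the longest run shared by Krt5 and Krt6a. They were thus chosen for recurring in keratins of both types. The sequence is from GENCODE M21 transcripts of mm10, 5′ to 3′ along the transcript.
Krt14 and Krt16: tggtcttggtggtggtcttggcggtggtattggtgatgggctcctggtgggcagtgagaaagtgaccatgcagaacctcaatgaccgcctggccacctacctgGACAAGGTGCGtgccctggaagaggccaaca

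The 11 capital bases were found in coding transcripts of 18 of 49 keratins (36.7%), type I and type II alike, and in 30 of 21901 protein-coding genes (0.137%). Of the 12 keratins detected in the limb, 8 carried them, namely Krt14, Krt5, Krt15, Krt17, Krt19, Krt1, Krt8 and Krt87. The choice of the bases fixed their presence in Krt14 and Krt5, and so in both types. These counts are therefore no measure of enrichment in keratins. Longer identity was rare among the abundant members: of all windows of 100 nt in the main coding transcript, 2.88% of those of Krt14 were found in another gene, 3.81% of those of Krt5, and none of those of Krt15, Krt17, Krt18, Krt19, Krt7, Krt1, Krt10 and Krt4. The share was 17.1% for Krt8, whose partners were the pseudogene Krt8-ps and the noncoding gene Gm36026, and 10.97% for Krt87. It reached 24.3% for Krt16 and 47.5% for Krt6a, so that their levels are uncertain.

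RefSeq windows from 250 bases before to 50 bases after the start of transcription (GRCm38.p6, 300 bases) matched 35 of the 50 members with 36 windows, among them 6 of the detected members. A basal, a suprabasal and a simple keratin whose RefSeq start lies within 100 bases of the annotated gene start are printed as examples. A single gene of each group cannot show how the groups differ. Capitals mark the motifs searched, on either strand: TATAAA (the TATA box), TGANTCA (AP-1), GCCNNNGGC (AP-2) and GGGCGG (the GC box of Sp1).
Krt5, chr15:101712856-101713155, minus strand: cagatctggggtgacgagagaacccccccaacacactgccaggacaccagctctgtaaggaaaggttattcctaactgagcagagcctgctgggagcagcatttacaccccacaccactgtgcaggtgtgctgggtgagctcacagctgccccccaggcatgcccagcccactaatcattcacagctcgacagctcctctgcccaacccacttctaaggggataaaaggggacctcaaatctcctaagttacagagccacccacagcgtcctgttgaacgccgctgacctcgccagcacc
Krt10, chr11:99389315-99389614, minus strand: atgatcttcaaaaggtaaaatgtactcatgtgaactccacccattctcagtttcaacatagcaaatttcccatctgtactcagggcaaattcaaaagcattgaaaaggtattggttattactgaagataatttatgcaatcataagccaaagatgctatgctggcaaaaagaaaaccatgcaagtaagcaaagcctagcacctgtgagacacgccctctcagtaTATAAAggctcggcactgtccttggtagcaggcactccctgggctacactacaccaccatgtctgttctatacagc
Krt18, chr15:102027966-102028265, plus strand: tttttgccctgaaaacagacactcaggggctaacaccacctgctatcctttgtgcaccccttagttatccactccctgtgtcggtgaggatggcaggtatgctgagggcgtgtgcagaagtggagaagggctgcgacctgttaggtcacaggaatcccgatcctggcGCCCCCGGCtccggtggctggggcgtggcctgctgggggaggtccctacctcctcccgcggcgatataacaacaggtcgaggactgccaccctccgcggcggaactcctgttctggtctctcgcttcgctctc

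The window of Krt10 held TATAAA, that of Krt18 the AP-2 letters, and that of Krt5 none of the 4 motifs in these exact letters. Near forms of the motifs, such as gataaaa in the window of Krt5, were not searched. TATAAA was present in 18 of the 36 keratin windows (50%) and in 13.6% of the 32851 windows of all genes. On the sense strand and beginning 20 to 40 bases before the start, it was present in 13 keratin windows (36.1%) and in 1.99% of all windows. Krt10 was the only detected keratin among those 13. Of the 6 detected members with a window, Krt14, Krt7 and Krt8 have a RefSeq start 1518, 1360 and 140 bases from the annotated gene start, so that their windows may not be at the promoter in use. The GC box was in 2 of the 36 keratin windows (5.56%) and 35.7% of all windows, AP-1 in 2 (5.56%) and 7.81%, and AP-2 in 7 (19.4%) and 16.6%. Both windows with AP-1 belong to Krt13, which was not detected. Of the 3 detected members whose starts lie within 100 bases, Krt18 held the AP-2 motif and none held AP-1. A match of letters is no evidence of binding, and neighbouring keratin genes share ancestry, so the windows are not independent.

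The limb contained RNA of few keratins, and most of it came from the basal layer set. Detection required at least 1 TPM in each library, a level that 12 of the 50 members reached (24.0%), against 34.6% of all genes and 61.0% of protein-coding genes. These comprised 6 type I and 6 type II genes, 5 of them on chromosome 11 and 7 on chromosome 15. Of the 38 others, 31 had a mean under 10 counts, 13 members were at 0 counts in 1 library and 6 were at 0 in both. At these depths 0 counts allow up to 3, or 0.0940 CPM (counts scaled to library size) in replicate 1 and 0.0695 CPM in replicate 2, so that RNA below this would not have been seen. Summed over the members, keratins made up 654 TPM in replicate 1 and 729 TPM in replicate 2, or 0.0654% and 0.0729% of all TPM. In a whole limb, fewer cells of a type and less RNA per cell cannot be told apart.

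**Figure D1:**
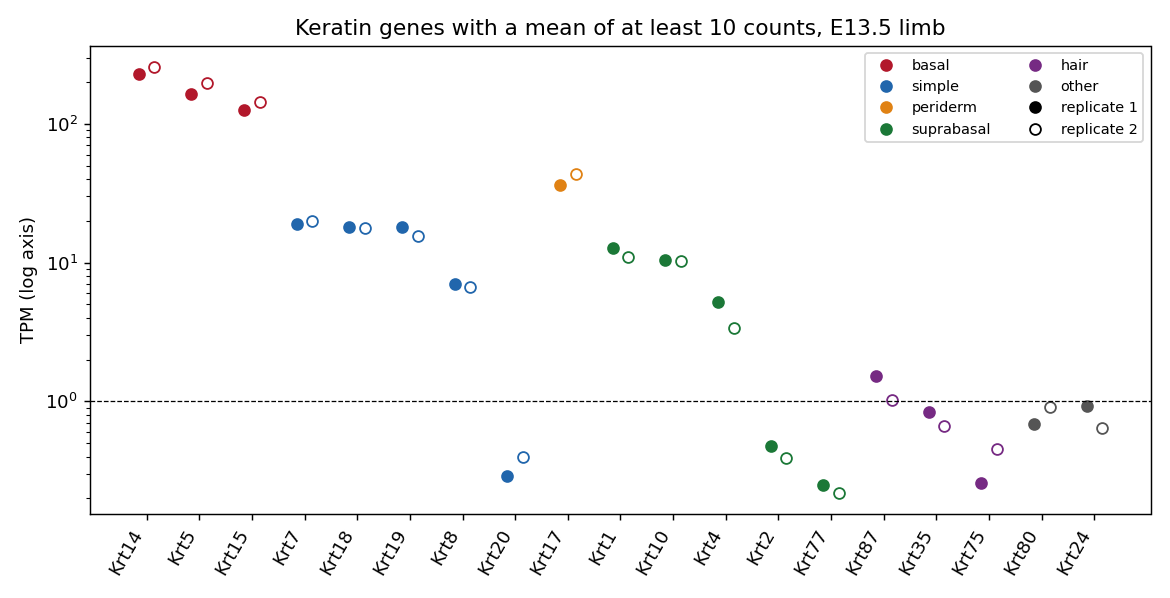
Level of each keratin with a mean of at least 10 counts, in TPM on a log axis, with filled points for replicate 1, open points for replicate 2, colours for the keratin groups and a dashed line at 1 TPM. Krt14, Krt5 and Krt15 stand above 100 TPM in both libraries, and 11 of the 12 detected members stand above 3 TPM.

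The basal keratins were the most abundant. Krt14 (ENSMUSG00000045545.8, chromosome 11, 100203162 to 100207548, minus strand), the type I keratin of the basal epidermis, was at 229 TPM in replicate 1 and 256 TPM in replicate 2. Krt5 (ENSMUSG00000061527.6, chromosome 15, 101707070 to 101712898, minus strand), the type II partner, was at 165 TPM in replicate 1 and 196 TPM in replicate 2. Krt15 (chromosome 11, 100131758 to 100135928), a type I keratin of basal cells without a fixed type II partner of its own, was at 125 TPM in replicate 1 and 143 TPM in replicate 2. All 3 listed basal keratins were thus detected, and the order Krt14, Krt5, Krt15 was the same in each library when all transcripts were counted. Together they held 80.5% ± 1.51 of keratin TPM (SD, n = 2), with 520 TPM in replicate 1 and 595 TPM in replicate 2.

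The RNA of Krt14 was divided between a pair of annotated transcripts. The coding transcript Krt14-201 (1698 nt, 8 exons) was given 62.0% of the gene's TPM in replicate 1 and 62.9% in replicate 2, or 142 and 161 TPM. The rest went to Krt14-202, a processed transcript of 1122 nt with no annotated coding sequence. Of the 100 nt windows of Krt14-202, 94.3% are also in the coding transcript, so few of its bases are its own. Krt15 was assigned almost wholly to its coding transcript, with 100% in replicate 1 and 99.0% in replicate 2, and Krt5 has a single transcript in the tables.

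Because type I and type II chains pair, the levels of partners were compared. A pair counted as apart by more than the spread when its log2 ratio, with 0.1 TPM added, had equal sign in each library and a mean beyond 2 times the replicate SD pooled over the 500 genes nearest in level. Of 20 partner or contrast pairs listed, 19 could be measured, 4 had a gene at the floor of 3 counts and 15 were compared. The difference was larger than the spread in 12 of these, with the gene named first higher in 7 and lower in 5. The 7 include Krt6a over Krt16, both with under 100 counts in each library. The pairs include contrasts between keratin groups and with Vim, and no share over pairs of other genes was computed, so the count is a description only. With Krt5 over Krt14 the log2 ratio was -0.47 in replicate 1 and -0.39 in replicate 2, so Krt14 was 1.35-fold higher per length. This order depended on the transcripts counted: for protein-coding transcripts alone the mean log2 ratio was 0.25 and on expected counts 0.17, with Krt5 higher and the difference again larger than the spread. Which of the basal partners was more abundant is therefore not settled by these tables.

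**Figure D2:**
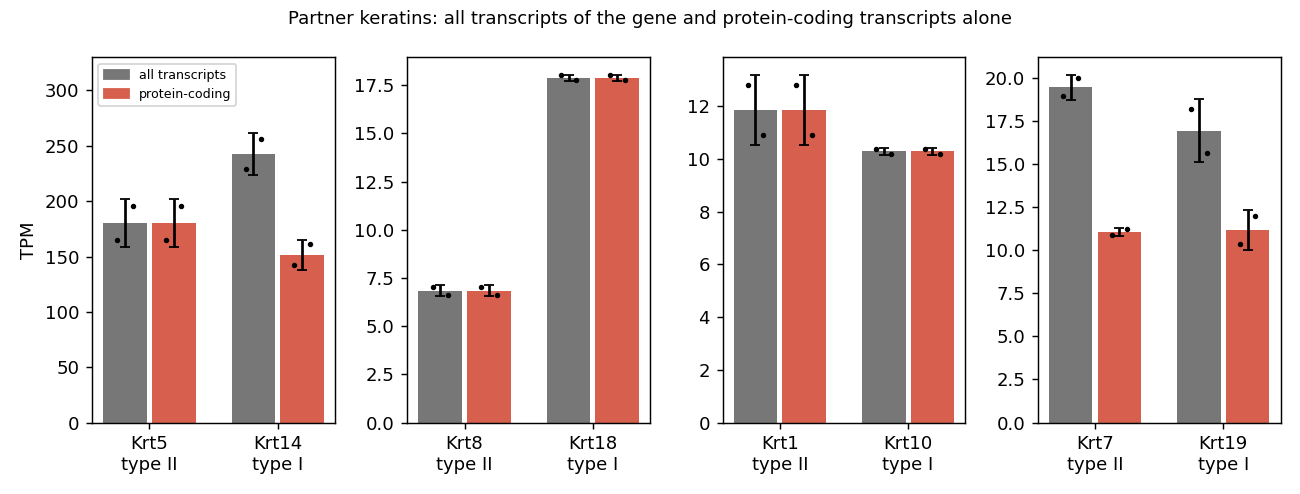
Mean TPM of 4 type II and type I partner pairs, with error bars of 1 SD and points for the 2 libraries, for all transcripts of each gene (grey) and for protein-coding transcripts alone (red); each panel has its own axis from 0. Krt14 is above Krt5 for all transcripts and below it for protein-coding transcripts, and Krt18 is above Krt8 in both.

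Krt14 was 1.81-fold above Krt15 (log2 0.85) and 6.08-fold above Krt17 (log2 2.61), both larger than the spread. For protein-coding transcripts the log2 ratios were smaller, at 0.18 and 1.93, and still past the spread. Over all members, type I genes summed to 441 TPM in replicate 1 and 489 TPM in replicate 2, and type II genes to 213 TPM and 240 TPM. The log2 ratio of type I to type II was 1.05 in replicate 1 and 1.03 in replicate 2, a 2.05-fold excess of type I RNA. Counted over protein-coding transcripts alone, the excess was 1.68-fold, with a log2 ratio of 0.75.

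The simple epithelial keratins came next, with 62.5 TPM in replicate 1 and 60.4 TPM in replicate 2, or 8.91% ± 0.894 of keratin TPM (SD, n = 2). Krt18 (chromosome 15, 102028180 to 102032027), the type I chain, was at 18.0 TPM in replicate 1 and 17.8 TPM in replicate 2. Krt8 (chromosome 15, 101996698 to 102004482), the type II partner, was at 7.03 TPM in replicate 1 and 6.63 TPM in replicate 2. Krt18 was therefore 2.60-fold above Krt8, a log2 ratio of Krt8 over Krt18 of -1.38 ± 0.046 (SD, n = 2), in the same direction under each of the 6 other settings run. Krt8 shares windows with a pseudogene, and how many of its reads were placed there was not measured.

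Krt7 (chromosome 15, 101411043 to 101430313), a type II keratin of simple and ductal epithelia, was at 18.9 TPM in replicate 1 and 20.0 TPM in replicate 2. Krt19 (chromosome 11, 100140810 to 100148665), the smallest type I keratin and one that lacks a tail domain, was at 18.2 TPM in replicate 1 and 15.6 TPM in replicate 2. Krt7 was 2.82-fold above Krt8, the other type II chain of this group, with a log2 ratio of Krt8 over Krt7 of -1.50, or -0.69 for protein-coding transcripts. With all transcripts counted, differences between Krt7, Krt18 and Krt19, neighbours in the order of levels, were within the spread. In replicate 2 taken alone, Krt7 passed it over Krt19 (log2 ratio 0.35). Protein-coding transcripts made up 10.9 TPM of Krt7 in replicate 1 and 11.2 TPM in replicate 2, and 10.4 TPM of Krt19 in replicate 1 and 11.98 TPM in replicate 2. On that scale Krt18, at 18.0 and 17.8 TPM, stood above both. Its log2 ratio over Krt19 was then 0.68, past the spread. The processed transcript Krt19-203 was given 43.1% of that gene's TPM in replicate 1 and 23.4% in replicate 2, so the libraries differed in this assignment. For Krt7 the largest share, 31.8% and 30.6%, went to Krt7-204, a coding transcript of 642 nt, ahead of the coding Krt7-201 at 25.8% and 25.6%. The noncoding Krt7-203 took 21.7% and 17.2%, Krt7-205 took 10.5% and 15.6%, and the intron-retaining Krt7-202 took 10.3% and 11.04%. Krt20, the fifth simple keratin of the list and also a marker of Merkel cells, was at 0.29 TPM in replicate 1 and 0.40 TPM in replicate 2, under the threshold.

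Markers of other epithelial cell types that could hold these keratins were looked up. By the same threshold, 61.0% of all protein-coding genes were detected. All 8 general epithelial genes listed were detected, with a summed level of 116 TPM in replicate 1 and 129 TPM in replicate 2, led by the adhesion gene Epcam at 36.6 and 40.6 TPM. Of 7 Merkel cell markers, which include Krt8, Krt18 and Krt20 themselves, 4 were detected. Besides Krt8 and Krt18 these were Piezo2, at 28.7 TPM in replicate 1 and 33.5 TPM in replicate 2, and Isl1, at 4.27 and 5.75 TPM. Sox2 was under the threshold, at 0.22 and 0.37 TPM. Atoh1, the factor that defines Merkel cells, had 1 count in replicate 1 and 3 counts in replicate 2. Of 8 markers of the apical ridge, the thickened ectoderm at the limb tip, 6 were detected, and Fgf8 was at 2.26 TPM in replicate 1 and 2.98 TPM in replicate 2. These lists share genes with each other and with other limb tissues (Dlx5, for example, is also a gene of the skeleton), and which cells carried the simple keratins was not tested.

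Of the periderm keratins, Krt17 was detected and Krt16 was not. Krt17 (chromosome 11, 100256217 to 100261029), a type I keratin of periderm and later of hair follicles, was at 36.4 TPM in replicate 1 and 43.4 TPM in replicate 2, the fourth highest member. Krt16 had 3.14 expected counts in replicate 1 and 6.31 in replicate 2. Krt6a, a type II keratin of periderm and stressed epidermis, was at 0.89 TPM in replicate 1 and 1.44 TPM in replicate 2, and Krt6b was at 0 in both. The log2 ratio of Krt6a over Krt16 was 2.44 with 0.1 TPM added, 0.93 with 1 TPM added and 3.58 on expected counts, so that at these few counts, and with the sequence the genes share, its size is not known. Of the 9 periderm markers listed, which include Krt17 and Krt6a, 8 were detected, beside 61.0% of protein-coding genes. The 9 markers summed to 164 TPM in replicate 1 and 197 TPM in replicate 2, led by the epidermal stress and cell cycle gene Sfn at 56.4 and 67.6 TPM.

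Among the 10 suprabasal keratins, 3 were detected and they held most of the 29.4 TPM of this group in replicate 1 and 25.2 TPM in replicate 2. Krt1 (chromosome 15, 101845426 to 101850794), the type II chain of differentiating epidermis, was at 12.8 TPM in replicate 1 and 10.9 TPM in replicate 2. Krt10 (chromosome 11, 99385254 to 99389364), its type I partner, was at 10.4 TPM in replicate 1 and 10.2 TPM in replicate 2. The partners were within the spread of each other, with a log2 ratio of Krt1 over Krt10 of 0.30 in replicate 1 and 0.10 in replicate 2. Krt14 was 23.3-fold above Krt10 (log2 4.54, or 3.87 for protein-coding transcripts), and Krt5 was 15.1-fold above Krt1. The antisense gene Gm11940 overlaps Krt10 and was at 1.21 TPM in replicate 1 and 2.05 TPM in replicate 2, and the use of strand in counting is not given in the sources used here.

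Krt4 (chromosome 15, 101918535 to 101924735), a type II keratin of stratified mucosal linings, was at 5.24 TPM in replicate 1 and 3.38 TPM in replicate 2. The type I gene Krt13, its usual partner, had 1 count in replicate 1 and 2 counts in replicate 2, where Krt4 had 222 and 190. Krt2, of the upper epidermis, was at 0.48 TPM in replicate 1 and 0.39 TPM in replicate 2, and Krt77 was at 0.25 and 0.22 TPM. Krt9, the keratin of palm and sole skin, had 1 count in each library, and Krt76 had none. Of 11 genes of the cornified layer, 2 were detected, beside 61.0% of protein-coding genes. These were Tgm1, a crosslinking enzyme, at 4.12 TPM in replicate 1 and 4.52 TPM in replicate 2, and Lor, a protein of the cornified envelope, at 3 and 3.10 TPM. Flg had 1 count in each library, Ivl had 2 counts in replicate 1 and 0 in replicate 2, and Dsc1, a desmosomal cadherin of upper layers, had 5 and 0. Dsg1a, the other desmosomal cadherin listed as a suprabasal marker, had 106 expected counts in replicate 1 and 174 in replicate 2 (0.91 and 1.12 TPM).

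The hair keratins were near the floor. Of 22 members, 1 was detected, Krt87 (chromosome 15, 101431038 to 101438804), at 1.53 TPM in replicate 1 and 1.02 TPM in replicate 2, from 55.0 and 48.9 expected counts. It is the detected member nearest to the threshold and was below 1 on the FPKM scale in at least 1 library. Krt35, a type I hair keratin, was at 0.84 TPM in replicate 1 and 0.66 TPM in replicate 2, and Krt75, a type II keratin of the follicle, at 0.26 and 0.45 TPM. Krt25, Krt34, Krt40 and Krt86 had no counts in either library, and 11 hair keratins had counts in 1 library only. Together the 22 genes made up 0.461% ± 0.135 of keratin TPM (SD, n = 2). Of the lettered hair keratins, Krt33b had 11 counts in replicate 1 and 13 in replicate 2, and Krt33a had 2 in each. None of the 57 keratin-associated protein genes, whose products embed hair keratins, was detected, and 53 of them were at 0 in both libraries.

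The 8 members that fit none of these groups summed to 2.19 TPM in replicate 1 and 2.25 TPM in replicate 2, and none was detected. Just under the threshold were Krt80, at 0.69 TPM in replicate 1 and 0.91 TPM in replicate 2, and Krt24, at 0.93 and 0.64 TPM. Krt42 had no counts in either library.

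**Figure D3:**
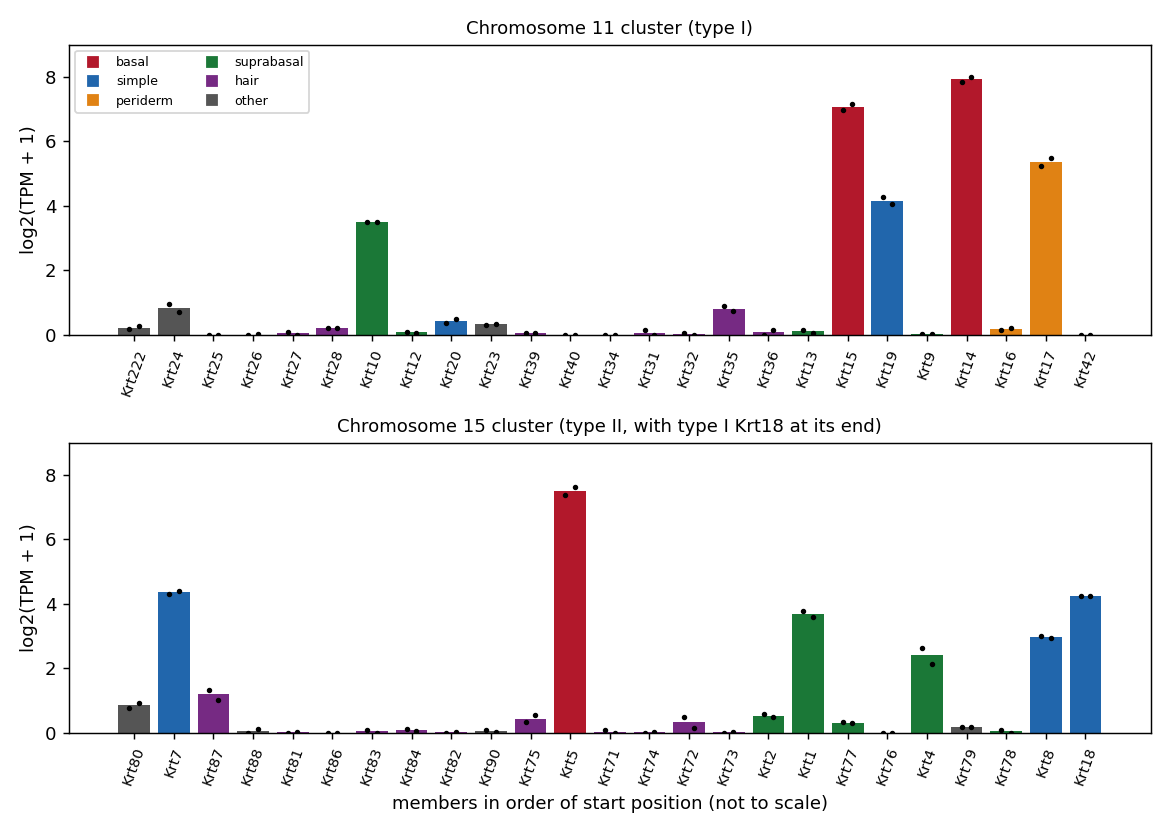
Mean log2(TPM + 1) of the 50 members in order of start position in the chromosome 11 cluster (top) and the chromosome 15 cluster (bottom), coloured by group, with points for replicate 1 (left) and replicate 2 (right). Detected members stand between genes at or near 0, with Krt14, Krt15, Krt17 and Krt19 near the end of the chromosome 11 cluster and Krt8 and Krt18 at the end of the chromosome 15 cluster.

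In the order of mean TPM (Krt14, Krt5, Krt15, Krt17, Krt7, Krt18, Krt19, Krt1, Krt10, Krt8, Krt4, Krt87), 8 of 11 neighbouring pairs differed by more than the spread. The exceptions were Krt7 with Krt18, Krt18 with Krt19, and Krt1 with Krt10. Members were sorted by the same values, so the direction of each step was set by the sorting. No share for neighbours among other genes was computed, and the count is a description only. It includes Krt4 with Krt87, and Krt87 had under 100 counts in each library. This order was of all transcripts: for protein-coding transcripts 3 of the neighbours changed places, and in replicate 1 alone 1 did. Across groups, Krt14 was 13.5-fold above Krt18 (log2 3.75, or 3.07 for protein-coding transcripts) and Krt5 was 26.0-fold above Krt8.

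Single keratins lay below Vim, the highest of the other filament genes, while the keratin sum was close to it when all transcripts were counted. Of 16 intermediate filament genes that are not keratins, 11 were detected, beside 61.0% of protein-coding genes. The 16 summed to 1164 TPM in replicate 1 and 1188 TPM in replicate 2. Vim, the filament of mesenchymal cells, was at 725 TPM in replicate 1 and 734 TPM in replicate 2, beside the sum over all keratins of 654 and 729 TPM. With Krt14 over Vim the fold was 0.332 (log2 -1.59, or -1.47 for protein-coding transcripts), and with Krt18 over Vim 0.0247 (log2 -5.34, or -4.54). Protein-coding transcripts of type I keratins summed to 346 TPM in replicate 1 and 389 TPM in replicate 2. Those of type II keratins summed to 205 and 231 TPM. Vim was lower on that scale as well, since Krt18 kept its level while its ratio to Vim rose. The keratin sum for protein-coding transcripts stood above Vim for such transcripts, so the closeness does not hold on that scale. The nuclear lamin genes Lmna, at 148 and 156 TPM, and Lmnb1, at 124 and 118 TPM, were each near Krt15.

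Genes that anchor keratin filaments were looked up, beside 61.0% of protein-coding genes detected by the same threshold. All 6 hemidesmosome genes, which fix basal cells to the basement membrane, were detected, led by Itga6 at 27.2 TPM in replicate 1 and 30.5 TPM in replicate 2, with Itgb4 lowest at 4.28 and 5.27 TPM. Of 16 desmosome genes, which join filaments between cells, 12 were detected. The highest were Perp at 102 and 111 TPM, Jup at 52.2 and 61.1 TPM and Pkp3 at 25.3 and 27.6 TPM, while Dsg4, a desmoglein of hair, had no counts. Of 16 transcriptional regulators of epidermis, 15 were detected, among them Trp63, the factor that defines stratified epithelia, at 24.6 TPM in replicate 1 and 28.8 TPM in replicate 2. Several of these, such as Hes1 and Msx2, are also genes of the limb mesenchyme.

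Between the libraries, Krt5 and Krt17 were lower and Krt4 was higher in replicate 1 relative to replicate 2, each by more than the spread. The log2 ratio of replicate 1 over replicate 2 was taken on TMM-scaled counts for the 11 members averaging 100 counts or more, and called when it passed 2 times the SD of genes of like counts. This called 3 of the 11, against 3.97% of the 13185 genes with as many counts. Krt5 was 0.857-fold and Krt17 0.853-fold in replicate 1 relative to replicate 2, and Krt4 was 1.57-fold. The 3 basal keratins lay between -0.22 and -0.14 on the log2 scale, with 1 past the spread, and the 3 suprabasal keratins with enough counts, of 10 listed, between 0.049 and 0.65, with 1 past it. Of the 4 simple keratins, 3 were higher in replicate 1, between -0.055 and 0.11, and none passed the spread. The sign of each of the 11 ratios was the same under TMM, DESeq2, spike-in and TPM scaling. DESeq2 and spike-in scaling shifted the ratios by only -0.000197 and -0.0255, less than the smallest ratio of 0.0403, and so could not change a sign.

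**Figure D4:**
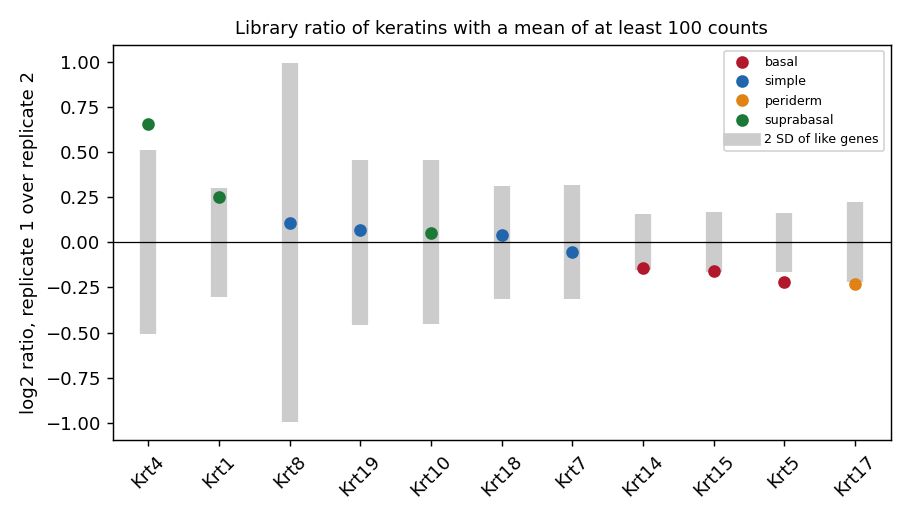
Log2 ratio of replicate 1 over replicate 2 for the 11 keratins with a mean of at least 100 counts, coloured by group, with grey bars of 2 SD of genes of like counts around 0. Krt4 lies above its bar and Krt5 and Krt17 lie below theirs.

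Other epithelial lists are given beside these ratios. The median log2 ratio of replicate 1 over replicate 2 was -0.22 for the 12 desmosome genes with as many counts, of which 1 passed the spread, and -0.13 for 6 hemidesmosome genes, of which 1 passed. It was -0.27 for 8 periderm markers, which include Krt17 itself, and 4 of them passed. All the genes that passed in these lists were higher in replicate 2, as were the values of the others, beside a median of -0.0053 over all genes. For the general epithelial genes the median was -0.16, with 6 of 8 values higher in replicate 2 and 0 past the spread. For 15 epidermal regulators it was also -0.16, with 12 values higher in replicate 2 and 4 past the spread. Of the 7 limb markers, 5 passed the spread, 2 of them higher in replicate 2. Of limb position genes, Tbx5, of the forelimb, was at 25.2 TPM in replicate 1 and 36.5 TPM in replicate 2, while Pitx1, of the hindlimb, was at 90.4 and 73.8 TPM and Tbx4, also of the hindlimb, at 24.4 and 20.9 TPM. The part of ectoderm content or limb type in the keratin ratios was not tested.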

How the data were processed

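The authors deposited gene and transcript tables for each of the 2 libraries, made on mm10 with the GENCODE M4 annotation, per the deposited text files. Aligner, quantifier and strandedness: not given in the sources used here. The deposited expected counts are estimates in which reads that match several transcripts are divided. The deposited TPM and FPKM values scale them by length, and the deposited IsoPct column is the percent of a gene's TPM assigned to each transcript, per the file headers. The posterior mean TPM, also deposited, was an alternative, and the deposited credibility bounds, a score here, supported no result.

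Symbols matched 42462 of 43346 Ensembl genes (98.0%). The 96 spike-ins and 26249 other rows (bare numbers and phiX), which held 0.000226% of counts in replicate 1 and 0.000148% in replicate 2, were left out. Positions, biotypes and transcript sequences came from GENCODE M21, a newer annotation on the same assembly, and promoter windows from RefSeq. Members, lists, pairs and tests were chosen with earlier results of these data known. The coding-transcript setting, alternatives for the order of levels and for calls between libraries, and the limb markers were added after seeing the data.

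TMM factors came from edgeR 4.0.16 (R 4.3.3) on counts rounded to whole numbers, over genes with at least 10 counts, and alternative size factors from DESeq2 1.42.0. All else was computed in Python 3.11.15 with numpy 2.4.6 and pandas 2.3.3. Library ratios had 0.5 counts added. Detected members, the highest of each group, members from 0.5 TPM up to the threshold, members at 0, pair genes, the 3 highest and the lowest of other lists and transcripts with at least 10% of a detected gene were to be named. Some list genes the rule picks were left unnamed. Other genes named were chosen after their values were seen. The library-ratio calls were tested on simulated data over 13185 genes, where 98 of 100 genes changed 2-fold, 100 of 100 changed 4-fold and 128 of 12985 unchanged genes (0.986%) were called. The simulation gave every gene an SD of 0.1 of its mean beyond counting noise, and in the real data 3.97% of genes were called. Changes under 2-fold, as in the called keratins, were not simulated, so 0.986% is no error rate for those calls.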

Additional observations from a re-analysis of the deposited data

How the results depend on the processing

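The count of detected members was 11 to 15 in every setting run: 15 at 0.5 TPM (Krt24, Krt35 and Krt80 added), 11 at 2 TPM and 11 on FPKM (both without Krt87), and 12 otherwise, with either library alone included. The log2 ratio of type I to type II totals was 0.54 on expected counts and 0.75 for protein-coding transcripts, against 1.04 for all transcripts, and 1.03 to 1.05 with either library alone. The share of simple keratins was 7.85% on expected counts, against 8.91%, and 8.28% to 9.55% with either library alone, while that of basal keratins was 79.5% to 81.6% in all settings. Of 90 pair ratios under other settings, 82 kept direction and call, 4 became larger than the spread and 4 changed direction. Those that became larger were Krt7 over Krt19 without replicate 1 (0.35) and on expected counts (0.69), Krt1 over Krt10 on expected counts (0.43) and Krt18 over Krt19 for protein-coding transcripts (0.68). Krt5 over Krt14 changed to 0.17 on expected counts and 0.25 for protein-coding transcripts. Krt7 over Krt19 changed to -0.011 for protein-coding transcripts and Krt18 over Krt19 to -0.017 without replicate 2 (0.18 without replicate 1), both within the spread. Expected counts are not per length and protein-coding transcripts are fewer, and the cause was otherwise not tested. Without replicate 1, 13 pairs were past the spread and without replicate 2, 12 pairs. Neighbours apart in the order of levels were 6 to 8 of 11, with 3 inverted for protein-coding transcripts and 1 without replicate 2, and the median library ratio of detected members was 0.019 to 0.045. Members called between libraries were 4 with a spread from the median absolute deviation (Krt15 added, beside 6.25% of all genes) and 2 on TPM (without Krt17), against 3. No paired analysis was possible because the samples form 1 group. With 2 libraries an SD is imprecise, and members with under 100 counts, which include all hair keratins, allow no reading of differences. The pair Krt6a with Krt16 and the neighbours Krt4 and Krt87 were counted as past the spread in spite of this.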
